A study of Mus musculus with 8 samples.

Results

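The Polycomb group genes described here are 10 named genes that encode subunits of the Polycomb repressive complexes, chosen by symbol: Ezh1, Ezh2, Eed, Suz12 and Jarid2 for PRC2, and Bmi1, Ring1, Rnf2, Cbx2 and Cbx7 for PRC1. All 10 of 10 had a probe among the 20125 genes that could be named on the array. Ezh1 was read by 3 probes, Bmi1 by 2, and each of the other members by 1. Expression was measured on 8 one-colour arrays in 4 groups with 2 arrays in each. All groups are mouse pro-B cell lines that lack Ebf1, a transcription factor that B-lineage specification requires, and that were derived from fetal liver and grown on stromal cells with SCF, Flt3L and IL-7. Pro-B(+) cells have T-lineage potential and were maintained on OP9, a stromal line from mouse calvaria. Pro-B(-) cells lack that potential and were maintained on TD7, a stromal line from fetal thymus. Pro-B(-)/Mock cells are pro-B(-) cells with an empty vector, and pro-B(-)/LMO2 cells are pro-B(-) cells with an Lmo2 vector. The titles of the transduced samples name a pro-B cell line without saying which. Their parent, and with it the lack of Ebf1, is therefore taken from the text of the study. The methods describe the Lmo2 vector as lentiviral. The sample labels do not give the stromal cells on which the transduced cells were kept, and each parental group is 1 cell line. A legend of the study calls the parental array data independent biological replicates. No such statement was found for the transduced lines, and the labels name no separate cultures, so p-values measure only the spread between these arrays, which may be technical in the transduced lines.

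Polycomb proteins keep silenced genes silent through cell divisions. In PRC2, the catalytic subunit EZH2 or its close relative EZH1 adds methyl groups to lysine 27 of histone H3, and EED and SUZ12 are required for this activity. In PRC1, the RING proteins RING1 and RNF2 attach ubiquitin to histone H2A together with a PCGF partner such as BMI1, and CBX proteins such as CBX2 and CBX7 bind the methylated histone. In blood cells, EZH2 is abundant in dividing progenitors, EZH1 is known to be expressed more widely in resting cells, and BMI1 is required for stem cell self-renewal.

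Lmo2, a bridging factor of blood transcription complexes, had a log2 signal (relative to the 75th percentile of its array, as all levels below) of 2.10 ± 0.01 in pro-B(+), 0.63 ± 0.002 in pro-B(-), 0.35 ± 0.002 in pro-B(-)/Mock and 0.96 ± 0.04 in pro-B(-)/LMO2 (mean ± SD, n = 2). Lmo2 signal was thus 1.53-fold higher with the Lmo2 vector than in Mock (limma, adjusted p = 0.000332), and stayed below that of pro-B(+). Mock was itself lower than pro-B(-) (log2 difference -0.28, adjusted p = 0.00584). Whether the probe reads the transcript of the vector is not known here. Ebf1 signal was detected over background on each of the 8 arrays, and its probe's place relative to the deleted part is not known here, so it checks no label. Of 14 pro-B markers, 11 or 12 gave a signal well above background in a group, on both of its arrays. Both arrays of the 2 parental lines lay on 1 slide and both arrays of the 2 transduced lines on another. The comparisons within a slide are pro-B(+) against pro-B(-), and pro-B(-)/LMO2 against pro-B(-)/Mock.

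With arrays scaled on the 75th percentile, the members with the largest log2 differences under the Lmo2 vector were Ezh1, Bmi1, Ring1 and Ezh2, and the 250 bases upstream of their RefSeq starts are shown to give the sequence context of these genes (RefSeq, GRCm38.p6, 5′ to 3′ on the strand of the gene). LMO2 does not bind DNA itself and is known to act with partners that bind E-boxes and GATA motifs, so E-boxes, spelled CANNTG, are set in capitals. The motif reads the same on both strands.
Ezh1, chr11:101226464-101226713, minus strand: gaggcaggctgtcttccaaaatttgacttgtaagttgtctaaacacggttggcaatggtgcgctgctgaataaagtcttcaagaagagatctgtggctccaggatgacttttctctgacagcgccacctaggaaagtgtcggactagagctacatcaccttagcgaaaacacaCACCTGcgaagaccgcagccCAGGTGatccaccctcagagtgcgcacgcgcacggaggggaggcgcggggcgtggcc
Bmi1, chr2:18676768-18677017, plus strand: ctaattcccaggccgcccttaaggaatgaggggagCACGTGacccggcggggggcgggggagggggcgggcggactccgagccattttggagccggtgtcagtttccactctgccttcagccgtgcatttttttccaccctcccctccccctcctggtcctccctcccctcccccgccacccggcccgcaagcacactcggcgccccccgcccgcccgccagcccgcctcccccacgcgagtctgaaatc
Ring1, chr17:34024681-34024930, minus strand: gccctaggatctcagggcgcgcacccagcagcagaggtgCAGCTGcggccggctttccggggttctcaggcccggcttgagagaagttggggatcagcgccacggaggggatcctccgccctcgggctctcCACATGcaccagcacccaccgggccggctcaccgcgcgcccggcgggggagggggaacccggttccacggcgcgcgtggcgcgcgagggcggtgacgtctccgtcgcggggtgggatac
Ezh2, chr6:47595031-47595280, minus strand: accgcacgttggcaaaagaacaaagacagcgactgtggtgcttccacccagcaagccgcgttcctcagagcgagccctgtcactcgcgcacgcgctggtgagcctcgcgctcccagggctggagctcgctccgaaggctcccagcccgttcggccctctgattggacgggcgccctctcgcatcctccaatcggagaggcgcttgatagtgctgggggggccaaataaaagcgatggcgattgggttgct
The Ezh1 window holds 2 E-boxes, which begin 77 and 57 bases before the start, and both are CAGGTG or its complement CACCTG, a form that E proteins such as E2A favour. The Bmi1 window holds 1 E-box, CACGTG, 215 bases before the start, a form that MYC family proteins favour. The Ring1 window holds 2 E-boxes, CAGCTG at 211 bases and CACATG at 119 bases, and the Ezh2 window holds none. A GATA motif, spelled GATA and searched on both strands, was present 1 time in each of the Ezh2 and Ring1 windows and absent from those of Ezh1 and Bmi1. These matches are common: of 32851 RefSeq windows of the same length, 66.2% hold CANNTG, 53.6% hold GATA, 17.2% hold CAGGTG and 6.0% hold CACGTG. These 4 windows held 14 to 30 CpG dinucleotides, against a median of 6 over all windows. The windows of the other members held from 12 (Eed) to 37 (Suz12). An E-box was also present upstream of Eed, Jarid2 and Cbx7, and absent from the windows of Suz12 and Rnf2. Promoter windows were found for 9 of the 10 members, and the exception was Cbx2.

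The question of the transduction experiment is what Lmo2 changes in cells that have lost T-lineage potential. Among the PRC2 genes, the catalytic pair moved in opposite directions with the Lmo2 vector. Ezh2 had levels of 2.82 and 2.86 on the pro-B(-)/Mock arrays and of 2.28 and 2.26 on the pro-B(-)/LMO2 arrays. Its signal was 1.49-fold lower with Lmo2 (log2 difference -0.57, SE 0.05, limma adjusted p = 0.000517). Ezh1 had levels of 2.07 and 1.97 on the Mock arrays and of 3.07 and 3.02 on the LMO2 arrays. Both LMO2 arrays were above every other array of the series, and Ezh1 was 2.03-fold higher with Lmo2 (log2 difference 1.02, SE 0.06, adjusted p = 0.000183). The other 2 Ezh1 probes were 2.14-fold (adjusted p = 7.45e-05) and 2.40-fold higher (adjusted p = 0.0108). The latter probe was dim, well above background on 7 of 8 arrays. All 3 Ezh1 probes therefore rose.

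Eed, whose product binds the methylated histone and stimulates the enzyme, had levels of 3.92 and 3.93 with the empty vector and of 3.48 and 3.48 with Lmo2. This was a 1.36-fold lower signal (log2 difference -0.44, SE 0.04, adjusted p = 0.000865), and the 2 LMO2 arrays were the lowest of the 8. Suz12, the scaffold subunit, had levels of 2.11 and 2.17 against 2.00 and 2.01. Its difference was small and close to the threshold (log2 difference -0.14, SE 0.05, adjusted p = 0.0474), and the call was lost in 8 of 14 alternatives, among them the removal of any of the 4 arrays compared (adjusted p from 0.0801 to 0.198). Jarid2, an accessory subunit that helps to recruit PRC2, had levels of 0.80 and 0.80 against 1.18 and 1.26. It was 1.34-fold higher with Lmo2 (log2 difference 0.42, SE 0.05, adjusted p = 0.00178).

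**Figure D1:**
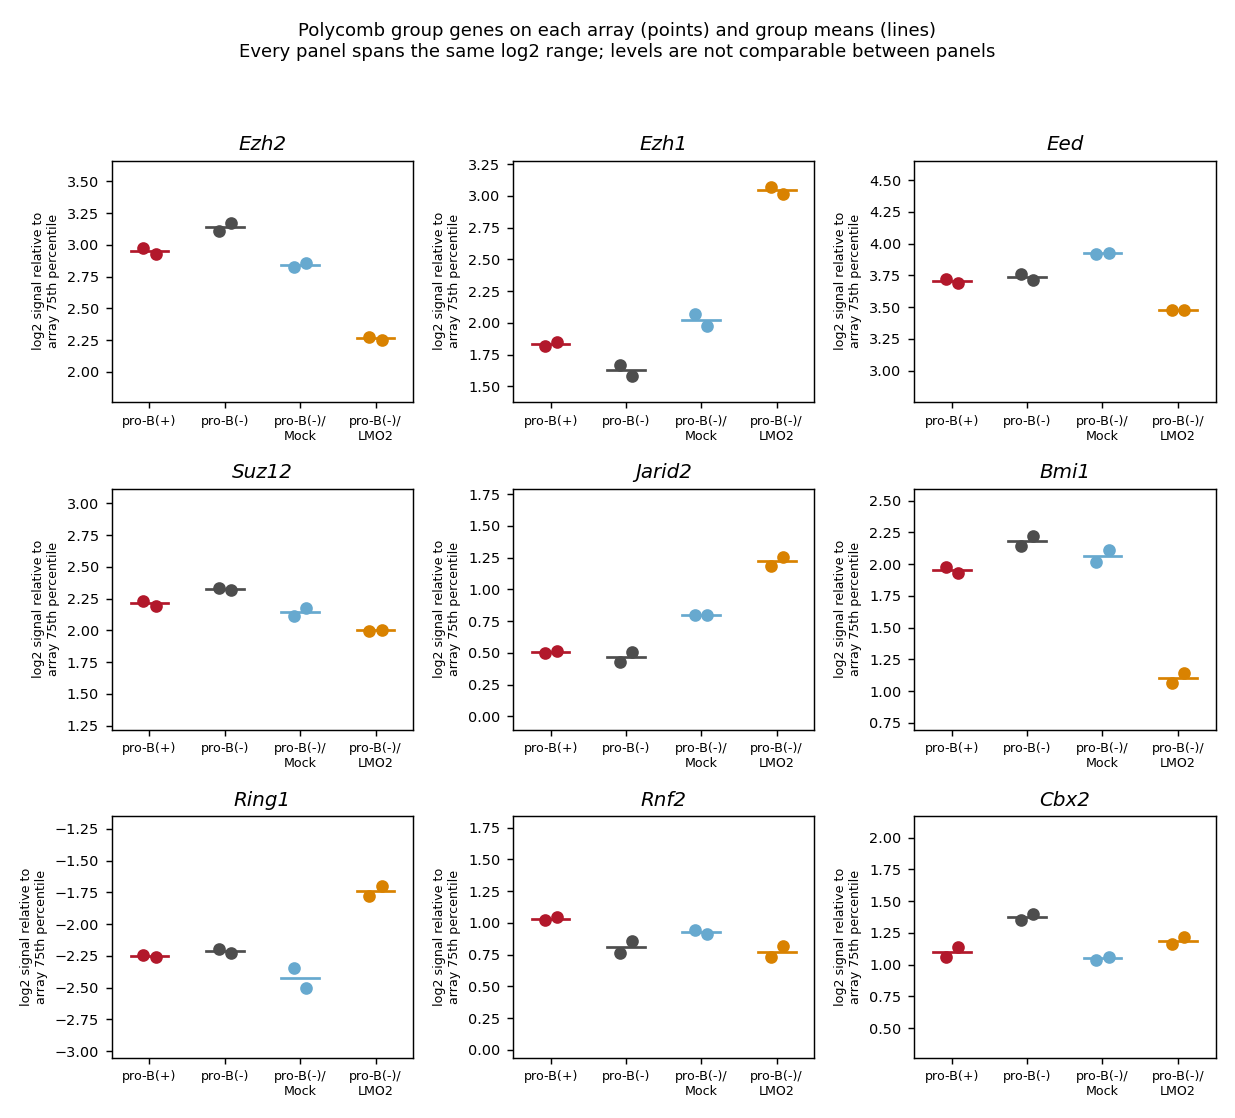
Log2 signal relative to the 75th percentile of each array (vertical axis) for the 9 Polycomb group genes above background, with a point for each array, a line at each group mean, and the 4 groups along the horizontal axis. Every panel has the same span. Ezh1, Jarid2 and Ring1 are highest, and Ezh2, Eed, Suz12 and Bmi1 lowest, on the 2 pro-B(-)/LMO2 arrays.

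The PRC1 genes also divided. Bmi1 had levels of 2.01 and 2.11 on the Mock arrays and of 1.07 and 1.14 on the LMO2 arrays, which was 1.94-fold lower (log2 difference -0.96, SE 0.06, adjusted p = 0.000236). The other Bmi1 probe gave a log2 difference of -0.73 (SE 0.06, adjusted p = 0.000462). Both LMO2 arrays lay below the other 6 arrays with each probe. Ring1 had levels of -2.35 and -2.50 against -1.78 and -1.70, and was 1.61-fold higher with Lmo2 (log2 difference 0.69, SE 0.07, adjusted p = 0.000879). The LMO2 arrays were the highest of the series, while the levels of the other 6 arrays ranged from -2.50 to -2.19. Rnf2, which encodes the other RING protein of the complex, had levels of 0.94 and 0.91 against 0.73 and 0.82. Its log2 difference of -0.16 (SE 0.06) did not pass the test (adjusted p = 0.0667). Cbx2 had levels of 1.03 and 1.06 against 1.16 and 1.22, and its log2 difference of 0.14 (SE 0.05) did not pass either (adjusted p = 0.0752). Cbx7 was not well above background on any of the 8 arrays and was not tested in any comparison.

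In this comparison, 7 of the 9 members tested were called at an adjusted p under 0.05, 3 higher and 4 lower. Changes were widespread in these cells, since 58.9% of all probes tested were called, 25.8% higher and 33.1% lower. The median log2 difference of the 9 members was -0.14, against -0.04 over all probes tested, and their median absolute log2 difference was 0.44, against 0.31 over all. Under every alternative run, 6 members kept their call and direction: Ezh1, Jarid2 and Ring1 higher, and Ezh2, Eed and Bmi1 lower. Scaling each array on its median moved the median of all probes from -0.04 to -0.25. Ezh1 was then higher by 0.81, Ring1 by 0.48 and Jarid2 by 0.21, while Bmi1 was at -1.16, Ezh2 at -0.78 and Eed at -0.65.

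**Figure D2:**
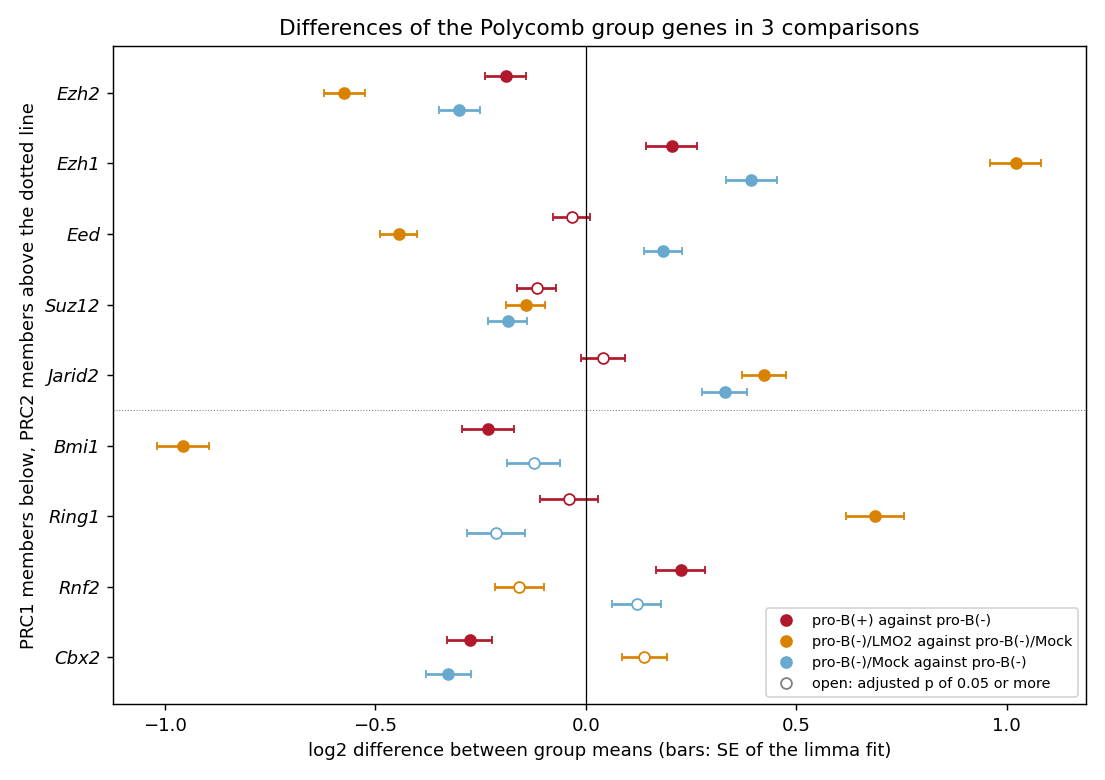
Log2 difference between group means (horizontal axis, bars are the SE of the limma fit) of the 9 members tested in 3 comparisons, 1 row a gene. The differences with the Lmo2 vector run from -0.96 for Bmi1 to 1.02 for Ezh1, whereas those between the parental lines lie between -0.28 and 0.23.

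Differences between members on the same array do not depend on how arrays are scaled. The pairs given here were chosen after their values were seen, so they are a description. Relative to the pro-B(-) mean, the log2 difference of Ezh1 minus Ezh2 was 0.36 and 0.43 on the pro-B(+) arrays, 0.76 and 0.63 on the Mock arrays and 2.31 and 2.27 on the LMO2 arrays. The balance of the 2 probes thus moved 3.02-fold towards Ezh1 between Mock and LMO2. Ring1 minus Bmi1 was 0.18 and 0.21 in pro-B(+), 0.04 and -0.21 with the empty vector, and 1.55 and 1.55 with Lmo2, a shift of 3.12-fold. Ring1 minus Rnf2 moved 1.80-fold towards Ring1 between Mock and LMO2. Each LMO2 array lay above all other arrays in these 3 differences.

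**Figure D3:**
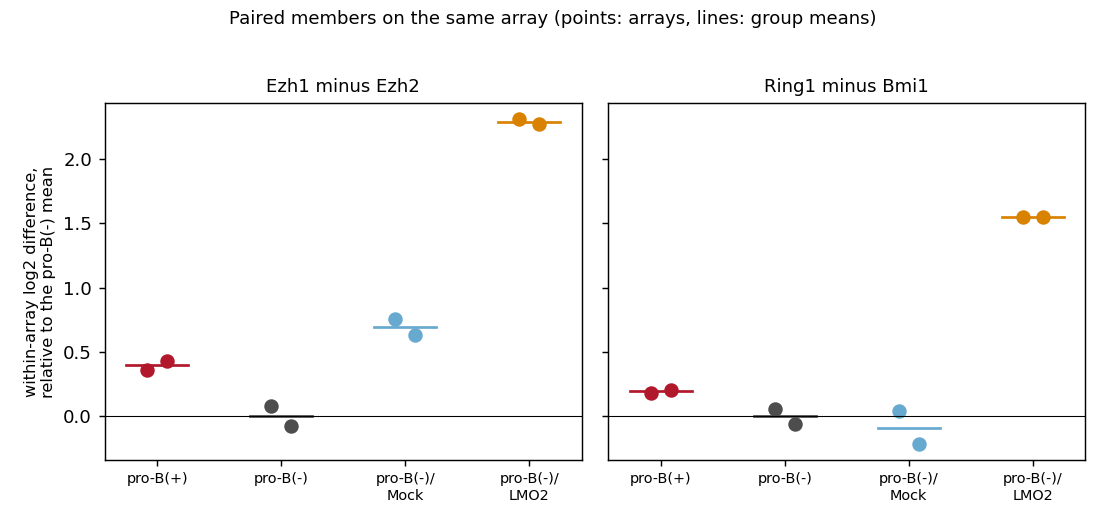
Log2 difference between a pair of members on the same array, relative to its mean in pro-B(-) (vertical axis), with a point for each array, a line at each group mean, and the 4 groups along the horizontal axis. The LMO2 arrays lie at 2.31 and 2.27 for Ezh1 minus Ezh2, and at 1.55 and 1.55 for Ring1 minus Bmi1.

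The parental contrast asks another question, namely how 1 line with T-lineage potential differs from 1 line without it. The lines were kept on OP9 and TD7, so potential, cell line and stromal cells cannot be told apart. Here the members differed by at most 0.28 on the log2 scale. Of the 9 members tested, 5 were called, 2 higher and 3 lower in pro-B(+), where 41.1% of all probes tested were called, 18.3% higher and 22.8% lower. Cbx2 had levels of 1.06 and 1.14 in pro-B(+) and of 1.35 and 1.40 in pro-B(-) (log2 difference -0.28, SE 0.05, adjusted p = 0.0129). Bmi1 had levels of 1.98 and 1.93 against 2.15 and 2.22 (log2 difference -0.23, SE 0.06, adjusted p = 0.0352), and its other probe missed the threshold (log2 difference -0.18, adjusted p = 0.0608). Ezh2 had levels of 2.97 and 2.93 against 3.11 and 3.17 (log2 difference -0.19, SE 0.05, adjusted p = 0.0309). These groups did not overlap, but neither did those of Suz12, which was not called. Rnf2 had levels of 1.02 and 1.05 against 0.76 and 0.85 (log2 difference 0.23, SE 0.06, adjusted p = 0.0313), and Ezh1 of 1.82 and 1.85 against 1.67 and 1.59 (log2 difference 0.20, SE 0.06, adjusted p = 0.0477). The other 2 Ezh1 probes gave 0.18 (adjusted p = 0.0337) and, for the dim probe, 0.54 (SE 0.26, adjusted p = 0.163). The remaining 4 members did not pass: the log2 difference was -0.12 for Suz12 (adjusted p = 0.105), 0.04 for Jarid2 (adjusted p = 0.564), -0.03 for Eed (adjusted p = 0.585) and -0.04 for Ring1 (adjusted p = 0.68).

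None of these 5 parental calls was kept under every alternative. Without pro-B(+) replicate 1 or without pro-B(-) replicate 2, 0 members were called by limma (4 and 2 at an unadjusted p under 0.05), and without pro-B(+) replicate 2 or pro-B(-) replicate 1, 1 was called. With arrays scaled on their medians, the median of all probes moved from -0.04 to -0.33. Of the members, 0 were then higher and 7 lower, where 2782 of the 23468 probes tested were higher and 14916 lower. Ezh1 and Rnf2 turned to -0.08 and -0.06, and Jarid2 turned to -0.24 and was called (adjusted p = 0.0127).

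The empty vector line was compared with its parent, and here the slide and the vector cannot be told apart. Of the 9 members tested, 6 were called, 3 higher and 3 lower in Mock, beside 50.8% of all probes tested, 24.2% higher and 26.6% lower. Ezh1 was higher by 0.39 (SE 0.06, adjusted p = 0.00537), Jarid2 by 0.33 (SE 0.05, adjusted p = 0.00591) and Eed by 0.18 (SE 0.04, adjusted p = 0.0216). Cbx2 was at -0.33 (SE 0.05, adjusted p = 0.00648), Ezh2 at -0.30 (SE 0.05, adjusted p = 0.00624) and Suz12 at -0.19 (SE 0.05, adjusted p = 0.0246). Ring1 (-0.21, adjusted p = 0.0519), Bmi1 (-0.12, adjusted p = 0.153) and Rnf2 (0.12, adjusted p = 0.138) did not pass. The other Bmi1 probe was called lower (-0.20, SE 0.06, adjusted p = 0.0432). The calls of Ezh2, Jarid2 and Cbx2 were kept under every alternative, and that of Ezh1 under all but the use of its dim probe (log2 difference 0.10, adjusted p = 0.775; the third probe gave 0.28, adjusted p = 0.0073). Eed and Suz12 each lost the call without pro-B(-) replicate 2 or either Mock array, and Suz12 also without pro-B(-) replicate 1 (adjusted p from 0.0586 to 0.116). Over the 4 groups, Ezh2 and Suz12 were highest in pro-B(-), and Eed was highest in Mock and lowest with Lmo2.

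The difference between the parental contrast and the Lmo2 contrast was tested as an interaction, with no array shared between the 2 contrasts. It was called for 8 of 9 members, beside 47.8% of all probes tested, with 4 members higher and 4 lower where 25.8% and 22.0% of all probes were. Ezh1 rose more with Lmo2 than it was higher in pro-B(+) (log2 difference of the contrasts -0.82, SE 0.09, adjusted p = 0.00161), and Bmi1 fell more (0.72, SE 0.09, adjusted p = 0.00251). The other Ezh1 probes gave -0.92 (adjusted p = 0.000572) and, for the dim probe, -0.72 (SE 0.37), which did not pass (adjusted p = 0.17). The other Bmi1 probe gave 0.54 (adjusted p = 0.00532). Ring1 (-0.73, SE 0.10, adjusted p = 0.00341) and Jarid2 (-0.38, SE 0.07, adjusted p = 0.0113) were higher with Lmo2 and close to 0 between the parents. Eed (0.41, SE 0.06, adjusted p = 0.00511) was lower with Lmo2 and close to 0 between the parents, and Ezh2 (0.38, SE 0.07, adjusted p = 0.00862) was lower in both. Cbx2 (-0.41, SE 0.08, adjusted p = 0.0091) and Rnf2 (0.38, SE 0.08, adjusted p = 0.0154) had opposite signs in the 2 contrasts, each with the Lmo2 value short of the threshold. The Rnf2 call was lost without pro-B(+) replicate 2 (adjusted p = 0.0544) or without Mock replicate 1 (adjusted p = 0.0545). Suz12 did not pass (0.03, SE 0.07, adjusted p = 0.768).

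The other subunits of the complexes were examined list by list. Of 8 accessory PRC2 genes tested, 2 were higher and 5 lower with Lmo2 (list median -0.47 against -0.04 over all probes tested), and 1 was higher and 2 lower in pro-B(+). With arrays scaled on their medians, 0 were higher and 6 lower in each contrast. Most probes shifted down under this scaling. Of 22998 tested with Lmo2, 3740 were higher and 11695 lower, and of 23468 tested between the parents, 2782 were higher and 14916 lower. Mtf2, which helps to bring PRC2 to CpG islands, fell by 0.58 with Lmo2 (SE 0.04, adjusted p = 0.00031). Its mean level was 2.39 in pro-B(-), 2.88 in Mock and 2.30 with Lmo2. The step up from pro-B(-) to Mock was 0.49 (SE 0.04, adjusted p = 0.000817) and spans the slides. Rbbp7, which encodes a histone-binding subunit, fell by 0.50 with Lmo2 (SE 0.06, adjusted p = 0.00187). Epop, which links PRC2 to elongin, had mean levels of 2.97 ± 0.05 in pro-B(-), 1.08 ± 0.03 in Mock and 0.49 ± 0.01 with Lmo2 (SD, n = 2). It fell by 1.89 between pro-B(-) and Mock (SE 0.06, adjusted p = 6.03e-05) and by a further 0.59 with Lmo2 (SE 0.06, adjusted p = 0.000756). Phf19, a paralog of Mtf2, had levels of -0.86 and -0.84 in pro-B(-), -3.76 and -3.64 in Mock and -6.20 and -5.20 with Lmo2, the last with 1 of 2 arrays not well above background. Its change between pro-B(-) and Mock was -2.85 (SE 0.32, adjusted p = 0.00204). For Epop and Phf19, the step to Mock was larger than any step of the 10 members, and it spans the slides.

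Of 21 accessory and variant PRC1 genes tested, 5 were higher and 10 lower with Lmo2 (median -0.05), and 1 was higher and 8 lower in pro-B(+) (median -0.14). Under median scaling, 1 was higher and 12 lower with Lmo2, and 0 were higher and 17 lower in pro-B(+), where 14916 of all 23468 probes tested were lower. The genes with the largest changes with Lmo2 were Pcgf5 (-0.79, SE 0.05, adjusted p = 0.000231) and Pcgf3 (-0.58, SE 0.05, adjusted p = 0.000578), which encode alternative partners to BMI1, and E2f6 (-0.60, SE 0.05, adjusted p = 0.000371), a repressor that binds with a variant PRC1. Between the parents, genes with large changes were Scmh1, at -2.28 and -2.27 in pro-B(+) and at -1.18 and -1.26 in pro-B(-) (log2 difference -1.06, SE 0.06, adjusted p = 0.000131), and the chromodomain gene Cbx8 (-0.49, SE 0.08, adjusted p = 0.00656).

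Among the enzymes that oppose Polycomb, 5 genes of the H2A deubiquitinase PR-DUB were tested, of which 1 was higher and 2 lower with Lmo2 and 1 higher and 2 lower in pro-B(+) (under median scaling, 1 and 3 with Lmo2, and 0 and 4 in pro-B(+)). Asxl1, a cofactor of BAP1 in this complex, was lower in both (-0.56, SE 0.05, adjusted p = 0.000575 with Lmo2, and -0.35, SE 0.05, adjusted p = 0.00421 in pro-B(+)). Mean Asxl1 levels were 3.88 in pro-B(-), 4.19 in Mock and 3.63 with Lmo2. Mock was 0.31 above pro-B(-) (SE 0.05, adjusted p = 0.00591), a step that spans the slides. Mbd5 rose by 0.78 with Lmo2 (SE 0.06, adjusted p = 0.000326). Of 11 genes for the demethylases of histone H3 lysine 27 and for trithorax proteins, 4 were higher and 4 lower with Lmo2, and 0 were higher and 3 lower in pro-B(+). Kdm6a, a demethylase of this residue, was 1.54-fold lower in pro-B(+) (log2 difference -0.62, SE 0.08, adjusted p = 0.00258) and 1.28-fold higher with Lmo2 (log2 difference 0.36, SE 0.08, adjusted p = 0.0117). Under median scaling, 0 of the 11 were higher and 6 lower with Lmo2, where Kdm6a did not pass (0.15, adjusted p = 0.211), and all 11 were lower in pro-B(+). With that scaling, 14916 of all 23468 probes tested were lower in pro-B(+), and the median over all probes was -0.33.

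Loci that Polycomb classically holds were followed as well. Of 40 Hox and Cdkn2 genes with a probe, 25 were too dim for the Lmo2 contrast, and among the 15 tested 11 were lower and 1 higher (median -1.40). Cdkn2a, which encodes cell cycle inhibitors of the INK4 and ARF type and is a known target of BMI1, had levels of -3.07 and -2.80 in pro-B(+), 0.98 and 1.15 in pro-B(-), 0.23 and 0.28 in Mock and -1.29 and -1.31 with Lmo2. Its signal was 16.0-fold lower in pro-B(+) cells (log2 difference -4.00, SE 0.11, adjusted p = 1.59e-05) and 2.93-fold lower with Lmo2 (against Mock, log2 difference -1.55, SE 0.11, adjusted p = 0.000276). The neighbouring Cdkn2b went the other way with Lmo2, from -3.11 and -2.95 to -2.13 and -2.25 (log2 difference 0.84, SE 0.08, adjusted p = 0.000618), and did not pass between the parents (0.15, adjusted p = 0.176).

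Of 9 Hoxa genes tested, 8 were lower with Lmo2, and 7 were lower in pro-B(+) between the parents. Hoxa4 was 3.82-fold lower (adjusted p = 3.65e-05) and Hoxa5 3.30-fold lower (adjusted p = 0.000133) with Lmo2. Hoxc4 had levels of 1.01 and 1.01 in pro-B(-) and of -4.74 and -4.89 in pro-B(+), a 56.7-fold lower signal (adjusted p = 3.72e-06), and was 7.95-fold lower with Lmo2 against Mock (adjusted p = 1.36e-05). Hoxa11 was 15.5-fold lower in pro-B(+) (adjusted p = 1.09e-05). Hoxb4, which is active in stem cells, was not well above background in pro-B(-), and its pro-B(+) signal was at least 6.89-fold higher (adjusted p = 0.000226). Arrays measure the RNA of these loci and not their histone marks.

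**Figure D4:**
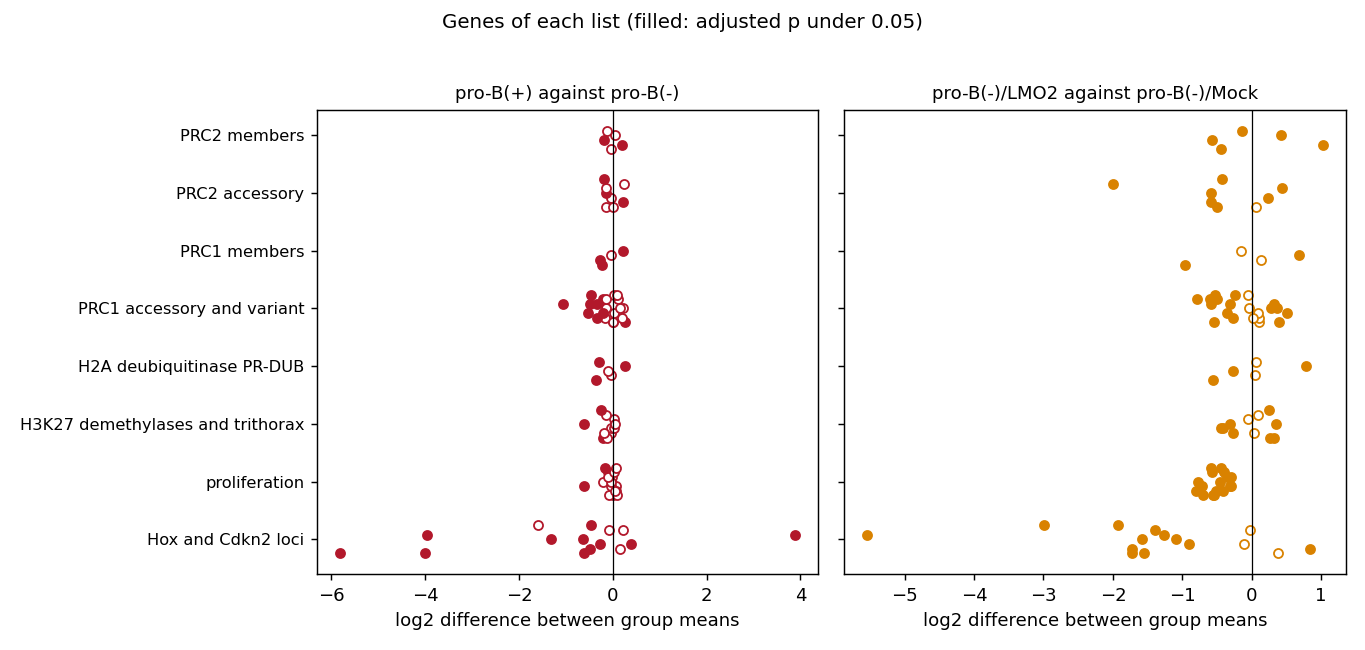
Log2 difference between group means (horizontal axis) of each gene tested, by list (rows), for the parental contrast and the Lmo2 contrast. Each point is a gene at its fitted value, filled where the adjusted p was under 0.05, and points are spread vertically for visibility. In the Lmo2 contrast all 17 proliferation genes lie below 0, and 11 of 15 Hox and Cdkn2 genes were called lower. Hoxb4 in pro-B(-) was not above background, so its point has only a bound.

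Other gene groups moved with the same contrasts, and their part in the results of the Polycomb group genes was not tested. All 17 proliferation genes tested were lower with Lmo2, with log2 differences from -0.80 to -0.29 and a median of -0.52. Ccna2, a cyclin of S and G2 phase, fell by 0.80 (SE 0.04, adjusted p = 0.000129) and Cdk1, its kinase partner, by 0.77 (SE 0.06, adjusted p = 0.000489). Of the 4 members called lower, Ezh2 (-0.57) and Eed (-0.44) lay within that range, and Bmi1 (-0.96) and Suz12 (-0.14) outside it. The 3 members called higher had the opposite sign. A link of any member to proliferation was not tested. Between the parents, 2 of these 17 genes were called, both lower in pro-B(+) (median -0.02), whereas under median scaling all 17 were called lower (median -0.30, against -0.33 over all probes tested). From pro-B(-) to Mock, 1 was higher and 7 lower (median -0.13). For each array, the signals of the proliferation list were also summed before taking the log2, so the brightest genes weigh most. This value was 8.35 to 8.39 on the LMO2 arrays and 8.85 to 8.92 on the other 6.

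Of 12 myeloid genes tested between the parents, 9 were higher and 1 lower in pro-B(+) (median 2.02). With Lmo2, 5 of 10 were higher and 1 lower (median 0.60). Mpo, the granule peroxidase, rose by 4.38 with Lmo2 (SE 0.05, adjusted p = 4.1e-06). The log2 of the summed signal of 12 myeloid genes was 7.35 to 7.38 in pro-B(+) and 6.82 to 6.94 in pro-B(-). It was 6.65 to 6.68 in Mock and 7.08 to 7.14 with Lmo2. Lyz2, S100a8 and S100a9 were not above background in pro-B(-) or Mock. Stromal genes were higher in pro-B(+) in 9 of 11 cases and higher in Mock than in pro-B(-) in 10 of 12. The log2 of their summed signal was 3.95 to 4.01 in pro-B(-) and 5.03 to 5.31 in the other 3 groups. Lum was not above background in any group. From Mock to LMO2, 5 of 12 stromal genes were higher and 2 lower, and under median scaling 2 were higher and 4 lower. Since these are bulk cultures, a change in the share of a cell type and a change in RNA per cell cannot be told apart.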

How the data were processed

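Total RNA of 8 samples was hybridised to one-colour whole mouse genome arrays. Spot intensity was deposited by the authors as Agilent Feature Extraction (version 11.5.1.1, per the file headers) wrote it, background subtracted and detrended. The deposited matrix holds log2 values that the authors normalized to the 75th percentile in GeneSpring. At least 99.6% of its values lay within 0.01 of log2 of the scanner values scaled the same way, after 1 constant per array, and the column medians ran from -4.53 to -4.19.

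Control spots were left out, as were spots with an outlier flag, and 39378 of 39429 probes were analysed. Processed intensities were put on the log2 scale, and the 75th percentile of the array (604 to 948 intensity units) was subtracted. Probes were named through transcript accessions in a RefSeq table (GRCm38.p6), which matched 26550 probes (67.4%) to 20125 symbols. The build of the array annotation differs (mm9), so no probe coordinates are given. The probe with the highest mean stood for a gene, and for the members the other probes are reported beside it. The share of probes well above background ran from 56.5% to 61.2% per array, and 0 were saturated. Precision is limited by the number of arrays.

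All 8 arrays entered 1 fit of 4 group means in limma 3.58.1 (R 4.3.3; lmFit and eBayes over all 39378 probes). A probe entered a test when 1 of the groups compared had it well above background on each array, and called at a Benjamini-Hochberg adjusted p under 0.05 over all probes tested. With 2 arrays against 2, an exact permutation test cannot go below a 2-sided p of 0.333. Where a gene was not above background in a group, its fold is a bound against a floor, which is its own signal or, if higher, the dimmest signal that the array still marks as well above background.

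All 10 members are named. From every other list, at most 3 called genes per comparison with the largest change and a signal above background on all arrays compared were eligible; Lmo2, Ebf1, Cdkn2a and Cdkn2b are always named. Genes outside this rule (Phf19 with Lmo2, Hoxb4) were added after their values were seen. The members and lists were chosen with earlier results of these data known. Some items are not reported here. Alternatives were another scaling, quantile normalization, normexp background correction (offset 50, on the median spot signal), the deposited matrix, other filters, variance models and sample sets, a replicate block, and each array left out.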

Additional observations from a re-analysis of the deposited data

How the results depend on the processing

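The count of members called between pro-B(+) and pro-B(-) was the value that moved: 5 in the fit described, 3 with no filter on dim probes, 0 with only the arrays compared (limma, 4 at an unadjusted p under 0.05), and 0 to 1 with 1 array left out. With the replicate number as a block it was 3, and the block changed the count of no other comparison by more than 1.5 times. The numbers do not pair the samples (correlations of replicate differences from -0.03 to 0.05). With median scaling, the parental values of Ezh1, Rnf2 and Jarid2 reversed to -0.079, -0.059 and -0.242 (the last now called), Cbx2 with Lmo2 to -0.071, and the Suz12 interaction to -0.048. With quantile normalization, parental Eed turned to 0.029 and the Suz12 interaction to -0.012, and the latter ran from -0.0038 to 0.056 with 1 array left out. Of these, only parental Ezh1 and Rnf2 had been called. The counts of the other 3 comparisons stayed within 1.5 times. Over 36 values of single members and 543 recomputed values, 466 kept direction and side of the threshold, 52 lost the call, 17 gained a call with the same sign and 8 changed sign. Of all probes, 9634 were called between the parents, 17698 with median scaling (2782 higher and 14916 lower, against 4291 and 5343) and 6219 with only the arrays compared. With Lmo2, median scaling gave 3740 higher and 11695 lower, against 5933 and 7615. The cause was not tested. A variance prior over the tested probes alone, added after seeing the data, called 6, 9, 7 and 8 members in the 4 comparisons. The slide could not be fitted as a block beside the groups, and normexp used the median spot signal in place of the mean.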
